A study of Mus musculus with 16 samples.

Results

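Hippocampal RNA of hTau.P301S mice was compared with that of WT mice when neither group had received nicotinamide riboside (NR), a precursor of NAD+ that the study gave to its other groups. The genotype and treatment in the labels chose 4 WT and 4 hTau.P301S mice, 8 of the 16 mice of the series. The hTau.P301S line expresses human Tau with the P301S mutation from the Thy1 promoter, which is active in neurons. By the labels, both groups drank vehicle water for 3 months from 12 months of age and were sampled at 15 months after behavioral tests, while the study's own account gives somewhat younger mice. The labels give neither the sex nor the strain background of any mouse, and a replicate number names a single animal. The deposited table lists 54532 genes, and the 16375 that passed edgeR's filter on low counts are described here. With replicate 1 of the hTau.P301S mice left out, 16835 genes passed.

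Tau, encoded by Mapt, binds and stabilizes axonal microtubules. The P301S mutation, found in inherited frontotemporal dementia, makes the protein prone to form filaments in neurons, and neuron loss with activation of microglia and astrocytes is known to follow in mice that carry it. In bulk tissue, fewer cells of a type and less RNA per cell of that type cannot be told apart.

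Total counts of the 8 mice lay between 16490261 and 19241573. The libraries were not alike. Mitochondrial genes took 14.4% of the counts in hTau.P301S replicate 1 and 19467 genes had a count there, against 4.48% to 7.07% and 22199 genes or more in the other 15 mice of the series, and its median correlation with the other mice was 0.819 where each of the other 7 had 0.942 or more. WT replicate 2 stood apart in markers of other brain regions. Its level of Adora2a, a receptor of striatal neurons, was 147 CPM where the other 7 mice had 1.49 to 3.12 CPM, and its level of Avp, a hypothalamic hormone, was 856 CPM where they had at most 2.28 CPM. Levels are given as CPM, counts scaled to the TMM-normalized total of a mouse. Xist, the transcript of an inactive X chromosome, was above 100 CPM in hTau.P301S replicates 2 and 4 and in WT replicates 1, 2 and 4. The other 3 mice had counts of the Y-linked Ddx3y instead, so that both groups held mice of both kinds. Of the mice given NR, hTau.P301S + NR replicate 4 and WT + NR replicates 1, 2 and 4 had Xist above 100 CPM. The others given NR had at most 0.403 CPM, so the kinds were not balanced between the genotypes there. What part this had in the differences between the groups given NR was not tested.

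The endogenous Mapt gene and Thy1, whose promoter carries the transgene, were examined first. Mapt was at 186, 374, 461 and 392 CPM in hTau.P301S replicates 1 to 4 and at 420.4, 361, 431 and 434 CPM in WT replicates 1 to 4. The groups overlapped, with replicate 1 of the hTau.P301S mice lowest, and the log2 fold change (log2FC) of hTau.P301S against WT was -0.22 (standard error 0.28, adjusted p = 0.772, edgeR's quasi-likelihood test with Benjamini-Hochberg adjustment, as for every adjusted p below). The human transgene was not analysed here. Thy1, a glycoprotein of the neuronal surface, was at 1620, 773, 1064 and 956 CPM in hTau.P301S and at 456, 452, 612 and 525 CPM in WT mice. Every hTau.P301S mouse lay above every WT mouse, and the log2FC was 1.11 (standard error 0.27, unadjusted p = 0.003, adjusted p = 0.598). It was 0.86 without replicate 1, where the adjusted p was 0.19. In the mice given NR, which are other animals, it was 0.48 and the 4 hTau.P301S + NR mice again lay above the 4 WT + NR mice. Whether reads of the transgene contribute to the count of Thy1 was not tested.

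A gene was called when its adjusted p was under 0.05 and its absolute log2FC was above 0.5. With all 8 mice 1 gene was called, or 0.00611% of the genes tested. Without hTau.P301S replicate 1 there were 14 called genes, 13 higher and 1 lower, or 0.0832%. At an unadjusted p under 0.05, 559 genes were higher in hTau.P301S mice (3.41% of those tested) and 610 were lower (3.73%), and without replicate 1 these were 868 (5.16%) and 1117 (6.63%). In 571 genes (3.49%) all 4 hTau.P301S mice lay above all 4 WT mice, and in 449 (2.74%) all lay below. DESeq2 fitted to the same 8 mice called 115 genes, 71 of them higher and 44 lower, and 290 without replicate 1. The median log2FC over all genes tested was 0.023 with 8 mice, -0.028 without replicate 1 and -0.016 between the 2 groups given NR. The medians of the gene lists below are read beside these, and their counts of members beside the shares of all genes given above.

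**Figure D1:**
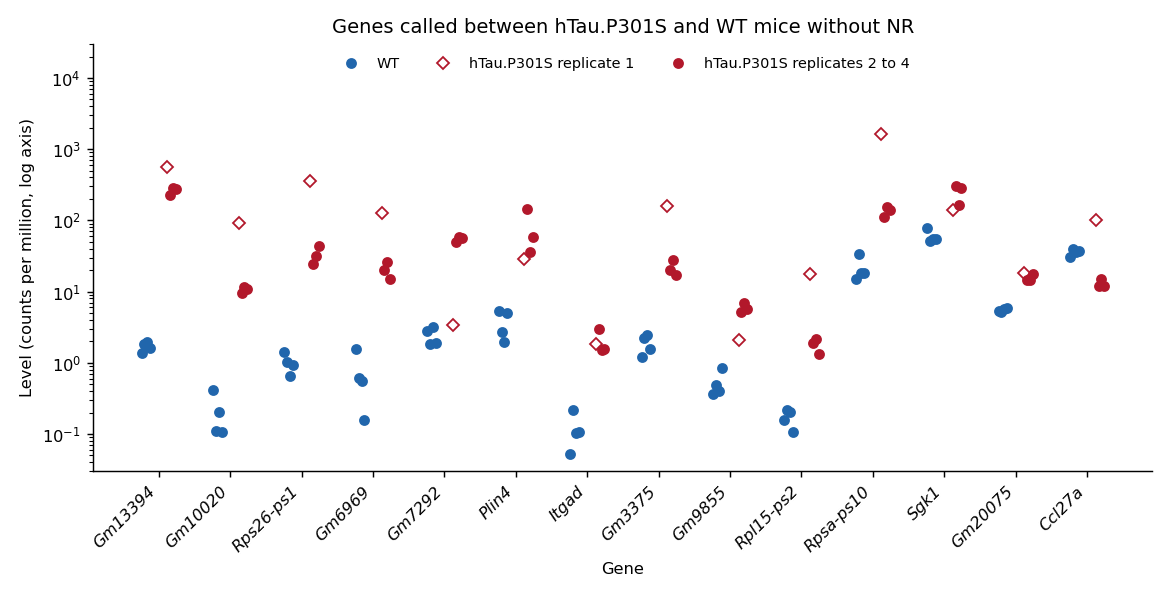
Level of the 14 genes called without hTau.P301S replicate 1, in CPM on a log axis, with 1 point for each mouse. WT mice are blue, hTau.P301S replicates 2 to 4 are filled red points and replicate 1 is an open diamond. In 13 genes the red points lie above the blue points, and in Ccl27a they lie below while the diamond lies above.

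The gene called with all 8 mice was Gm13394 (chr2:28933610-28934609 of GRCm38, minus strand), annotated as a processed pseudogene, an intronless copy of a messenger RNA. Its level was 562, 225, 287 and 272 CPM in hTau.P301S replicates 1 to 4 and 1.37, 1.86, 1.99 and 1.63 CPM in WT replicates 1 to 4. It rose in hTau.P301S mice by a log2FC of 7.61 (standard error 0.41, adjusted p = 0.000322), and by 7.25 without replicate 1 (adjusted p = 1.02e-06). The 1000 bases of its transcript match Gapdh, the glycolytic enzyme, at all but 1 base, so reads of one can be counted as the other. A level under either name is therefore of the reads assigned to it, and the locus that they came from was not tested. Gapdh itself was at 11.7, 4.28, 6.42 and 4.06 CPM in hTau.P301S and at 75.4, 5.58, 8.91 and 8.55 CPM in WT mice, and its groups overlapped (adjusted p = 0.598).

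Most called genes were of this kind. Of the 14 called without replicate 1, 8 were processed pseudogenes, and all 8 rose. They matched the transcript of a parent gene at 97.7% to 99.9% of the aligned bases. The parents were Gapdh, Rpl15 (for 2 of them), Rps26, Rpsa, Cox7a2l, Psmb5 and Tdg, that is, 3 proteins of the cytosolic ribosome, a factor of respiratory supercomplexes, a proteasome subunit and a DNA repair enzyme. The stretches that tell copy and parent apart are shown because the 2 transcripts read alike outside such places over their aligned bases, and RSEM shares reads that match both by estimation. Each line is a stretch of the coding strand read from GENCODE's transcripts of GRCm38, 5' to 3', with the differing bases in capitals, and a token such as A346C gives the parent's base, its position counted from 1 at the A of the parent's start codon, and the base of the pseudogene. In Gm13394 the difference from Gapdh is A346C.
Gapdh, coding bases 316 to 376: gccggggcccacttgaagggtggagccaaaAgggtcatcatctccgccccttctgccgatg
Gm13394: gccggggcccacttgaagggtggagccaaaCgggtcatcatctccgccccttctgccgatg
Gm10020 (chr15:52477617-52478228, minus strand) differs from Rpl15, a protein of the large ribosomal subunit, by A156G and C202A, the first of which lies here.
Rpl15, coding bases 126 to 186: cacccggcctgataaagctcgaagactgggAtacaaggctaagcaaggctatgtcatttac
Gm10020: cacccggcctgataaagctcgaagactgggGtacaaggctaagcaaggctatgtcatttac
Gm6969 (chr12:24638669-24639010, minus strand) has 6 bases that the reference transcript of Cox7a2l lacks, beside T214A. As background, C57BL/6J, the strain of the reference genome, carries a short form of Cox7a2l and several other laboratory strains a longer one. The alleles of these mice were not analysed here.
Cox7a2l, coding bases 184 to 238: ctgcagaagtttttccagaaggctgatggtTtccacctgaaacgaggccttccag
Gm6969: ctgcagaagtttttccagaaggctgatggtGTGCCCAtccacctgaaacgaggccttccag
Gm9855 (chr10:42054113-42055306, minus strand) differs from Tdg at 9 bases, 3 of which lie in this stretch (A855G, G877A and G879C).
Tdg, coding bases 825 to 885: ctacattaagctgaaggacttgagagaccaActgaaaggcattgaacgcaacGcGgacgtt
Gm9855: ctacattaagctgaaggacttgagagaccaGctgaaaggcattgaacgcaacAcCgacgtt

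The pseudogenes were low in WT mice. Gm10020 was at 90.4, 9.53, 11.7 and 10.7 CPM in hTau.P301S and 0.420, 0.110, 0.204 and 0.105 CPM in WT mice, and it rose by a log2FC of 5.62 without replicate 1 (standard error 0.42, adjusted p = 0.00194). Replicate 1 was the highest hTau.P301S mouse, as it was in Rps26-ps1, Gm6969, Gm3375, Rpl15-ps2 and Rpsa-ps10, and without it the other 3 mice still lay above all WT mice in each. Rps26-ps1 was at 362, 24.2, 31.6 and 43.9 CPM and 1.42, 1.04, 0.662 and 0.944 CPM, a log2FC of 5.03 without replicate 1 (adjusted p = 0.000411). Gm6969 was at 126, 20.2, 26.1 and 14.9 CPM and 1.58, 0.602, 0.560 and 0.157 CPM, with 4.81 (adjusted p = 0.0228). The remaining parent-like copies of ribosomal and proteasomal genes showed log2FCs of 3.53 (Gm3375), 3.34 (Rpl15-ps2) and 2.69 (Rpsa-ps10) without replicate 1, with adjusted p of 0.00387, 0.036 and 0.0143. With all 8 mice none of these passed the adjusted limit, the adjusted p lying between 0.189 and 0.504.

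Gm9855 and its parent gene lay in opposite directions. Gm9855 was at 2.11, 5.14, 6.95 and 5.66 CPM in hTau.P301S and 0.368, 0.492, 0.407 and 0.839 CPM in WT mice, and rose by 3.47 (log2) without replicate 1 (standard error 0.35, adjusted p = 0.014). Tdg, the thymine DNA glycosylase that removes mismatched and oxidized bases, was at 10.97, 15.8, 19.3 and 18.1 CPM in hTau.P301S and 24.8, 26.6, 28.8 and 33.9 CPM in WT mice. Each hTau.P301S mouse lay below each WT mouse in Tdg, where the log2FC was -0.83 with 8 mice (unadjusted p = 0.0048, adjusted p = 0.598). The NR mice, all different animals, showed the same pair of directions, with 2.62 for Gm9855 and -0.91 for Tdg. In the other parents the groups overlapped. Rpl15, for example, was at 1015, 144, 192 and 135 CPM in hTau.P301S and 167, 238, 148 and 146 CPM in WT mice.

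In the mice given NR most of these copies again separated the genotypes. Gm13394 was at 180.3, 248, 171 and 226 CPM in hTau.P301S + NR and 2.31, 2.29, 2.07 and 1.58 CPM in WT + NR mice, a log2FC of 6.63. The log2FCs of Gm10020, Rps26-ps1, Gm6969, Rpl15-ps2 and Rpsa-ps10 were 5.51, 5.49, 4.92, 3.52 and 2.72, and in all of them the 4 mice of one genotype lay above the 4 of the other. The exception was Gm3375, a copy of Psmb5, at 10.7, 18.9, 11.9 and 17.1 CPM and 25.9, 1.48, 2.42 and 1.86 CPM, where the groups given NR overlapped. Over the genes tested between the groups given NR, 1.61% lay higher without overlap and 2.13% lower. Of the 571 genes higher without overlap in mice without NR, 36 (6.30%) were also higher without overlap in the NR mice, and 13 of the 36 were processed pseudogenes. The 36 also hold Itgad, which was too low in the NR mice to be among the genes tested there. Of the 449 lower genes, 16 (3.56%) were also lower without overlap, and 5 of the higher and 3 of the lower genes lay the opposite way. Among the protein-coding genes of the 36 were Tuba1c, a tubulin that builds microtubules, Folh1, which releases glutamate from a neuropeptide, and Cd48, a surface protein of leukocytes. Their log2FCs were 1.64, 0.97 and 2.98 without NR and 1.12, 0.88 and 1.10 with NR.

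**Figure D2:**
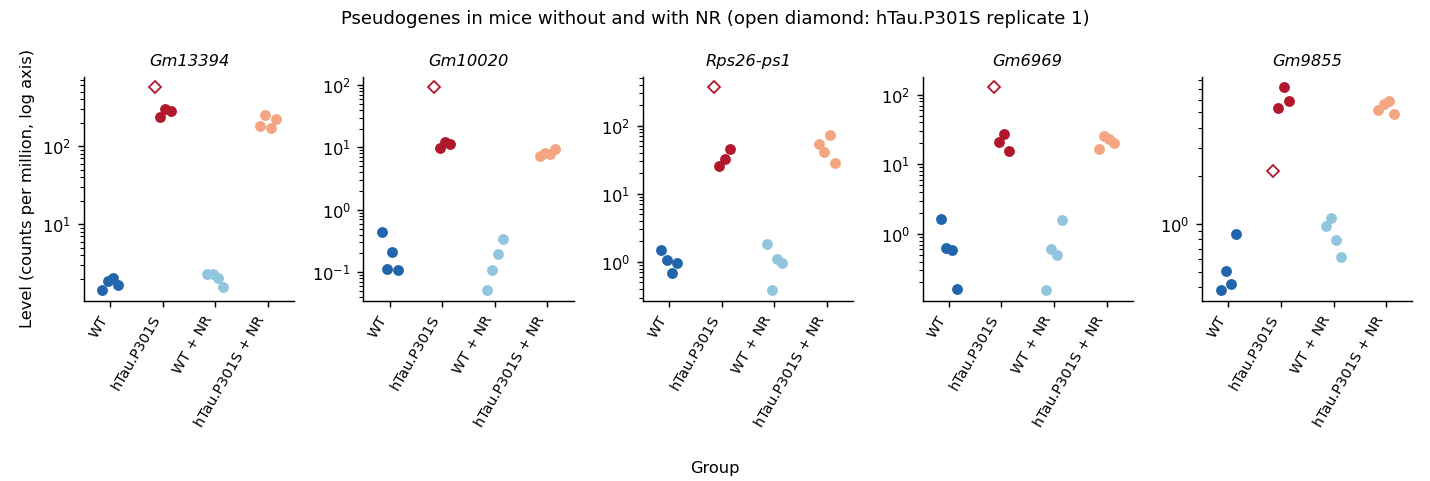
Level of 5 pseudogenes in the 4 groups of the series, in CPM on a log axis, with 1 point for each mouse and 4 mice in a group. In every panel the hTau.P301S mice lie above the WT mice both without NR (red, dark blue) and with NR (orange, light blue), and the open diamond marks hTau.P301S replicate 1.

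Processed pseudogenes as a class were not all higher. Of the 498 tested with 8 mice, 22 were higher and 1 lower without overlap, beside 3.49% and 2.74% of all genes, and the median log2FC was 0.46. Without replicate 1 the median over 527 was -0.029, close to that of all genes, and 7 were called there, which does not count Rps26-ps1, annotated as transcribed. Among genes that are no pseudogene, the lincRNA Gm7292 (chr6:117716342-117718868) was called without replicate 1. It was at 3.38, 49.97, 57.8 and 56.8 CPM in hTau.P301S and 2.79, 1.81, 3.21 and 1.89 CPM in WT mice, and replicate 1 alone lay near the WT mice. It rose by 4.49 on the log2 scale (adjusted p = 0.000129). Gm20075, a gene annotated as protein-coding with no described role, was at 18.1, 14.6, 14.3 and 17.8 CPM and 5.36, 5.09, 5.70 and 5.93 CPM and rose by 1.49 (adjusted p = 0.0228). In the NR mice these log2FCs were 2.30 and 1.27.

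Of the named protein-coding genes that were called, Sgk1 and Plin4 are known targets of glucocorticoid hormones, which act through a nuclear receptor that binds DNA as a pair. Sgk1, a kinase that controls ion channels and transporters, was at 138, 305, 162 and 288 CPM in hTau.P301S replicates 1 to 4 and 77.2, 51.8, 54.3 and 54.04 CPM in WT replicates 1 to 4. Every hTau.P301S mouse lay above every WT mouse, the log2FC was 1.91 with 8 mice (standard error 0.31, adjusted p = 0.198), and Sgk1 rose by 2.08 without replicate 1 (standard error 0.24, adjusted p = 0.0228). Plin4, a protein that coats lipid droplets, was at 28.7, 143, 35.4 and 58.5 CPM and 5.41, 2.68, 1.94 and 4.98 CPM. Replicate 2 of the hTau.P301S mice was the highest and no mouse overlapped, and Plin4 rose by 4.39 on the log2 scale without replicate 1 (standard error 0.53, adjusted p = 0.031).

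A list of 24 glucocorticoid-responsive genes was put together after these values had been seen, so its members were chosen by them and their common direction is a description only. All 24 had a log2FC above 0, the median was 1.17, and 14 of them were higher without overlap, beside 3.49% of all genes. Without replicate 1 the median was 1.14. Summed over the list, the level was 4436, 4842, 3462 and 3886 CPM in hTau.P301S and 2547, 2454, 2072 and 2239 CPM in WT mice, and the lowest hTau.P301S mouse lay above the highest WT mouse. Tsc22d3, which encodes the anti-inflammatory protein GILZ, was at 87.5, 116, 81.3 and 144 CPM in hTau.P301S and 53.04, 62, 49.1 and 54.7 CPM in WT mice. Nfkbia, the inhibitor that holds NF-kappaB in the cytoplasm, was at 39.6, 45.6, 28.3 and 39.3 CPM and 17.4, 16.96, 15.2 and 14.4 CPM. In both, all 4 hTau.P301S mice were higher than all WT mice, with log2FCs of 0.97 and 1.25 and adjusted p of 0.504 and 0.198.

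Genes of this kind with different roles showed the same order of the groups. Hif3a, an inhibitory member of the hypoxia-inducible factors, was at 7.51, 24.6, 8.42 and 18.2 CPM and 1.95, 0.657, 3.62 and 3.10 CPM (log2FC 2.65). Mfsd2a, which carries omega-3 lipids across the blood-brain barrier, was at 20.3, 42.5, 22.8 and 34.7 CPM and 9.46, 14.01, 16.4 and 9.71 CPM (1.28). Mt1, a metal-binding metallothionein, was at 2513, 672, 478 and 657 CPM and 218, 279, 171 and 162 CPM (2.38, and 1.54 without replicate 1). None of these 3 overlapped between groups, and none passed the adjusted limit. Arrdc2, an arrestin-like protein, had a log2FC of 1.80, and Errfi1, an inhibitor of the EGF receptor, of 0.70, again without overlap. Fkbp5, a co-chaperone of the glucocorticoid receptor, was at 55.7, 183, 90.5 and 107 CPM and 58.4, 44.5, 57.9 and 55.9 CPM. Replicate 1 lay within the WT mice in Fkbp5 and the other 3 lay above them. In Zbtb16 and Dusp1, the groups overlapped widely, with 1.18, 87.4, 46.1 and 57.95 CPM against 39, 7.39, 62.9 and 56.4 CPM and 19.7, 39.4, 14.1 and 21.2 CPM against 17.1, 20.6, 30.1 and 18.6 CPM.

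Of the 6 RefSeq promoters of Sgk1 (250 bases before to 50 after a start site, assembly GRCm38.p6), 1 holds the full palindrome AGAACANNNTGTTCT, the classical sequence bound by a pair of glucocorticoid receptors. It is printed because Sgk1 is 1 of the 2 called genes of this group, from 40 bases before the palindrome to 40 after it, with the palindrome in capitals.
Sgk1 promoter, chr10:21993661-21993755, plus strand: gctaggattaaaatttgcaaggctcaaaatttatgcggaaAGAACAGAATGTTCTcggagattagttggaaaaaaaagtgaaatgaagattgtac
The stretch ends 135 bases before the start site. The palindrome reads the same on both strands, and of 32851 promoters searched 3 (0.00913%) held it. Of the 24 genes of the list 20 had a promoter in the table, and Sgk1 was the 1 gene with a match. No binding was measured here, and a match is a description of letters.

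In the mice given NR both genotypes had similar levels of these genes. The median log2FC of the 24 genes was -0.015, and their summed level was 2717, 2855, 3006 and 2262 CPM in hTau.P301S + NR and 2824, 2543, 2740 and 2709 CPM in WT + NR mice. Sgk1 was at 74.04, 74.8, 136 and 58.8 CPM and 98.3, 68.9, 119 and 110.2 CPM (log2FC -0.21), and Plin4 at 4.88, 8.61, 8.63 and 5.44 CPM and 5.55, 4.81, 7.30 and 7.84 CPM (0.11). The difference between both genotype effects was tested as an interaction over all 16 mice. Its unadjusted p was 0.000171 for Sgk1, 1.96e-05 for Plin4, 6.03e-05 for Nfkbia and 0.000152 for Arrdc2, and the adjusted p was 0.426, 0.172, 0.28 and 0.426. These genes and the list were chosen for their difference in the mice without NR, which also enter the interaction. That choice alone favors small unadjusted p and a smaller difference in the NR mice, so both are descriptions only. With edgeR no gene had an interaction at an adjusted p under 0.05, while 1390 of 17555 genes had an unadjusted p under 0.05 and DESeq2 called 18.

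**Figure D3:**
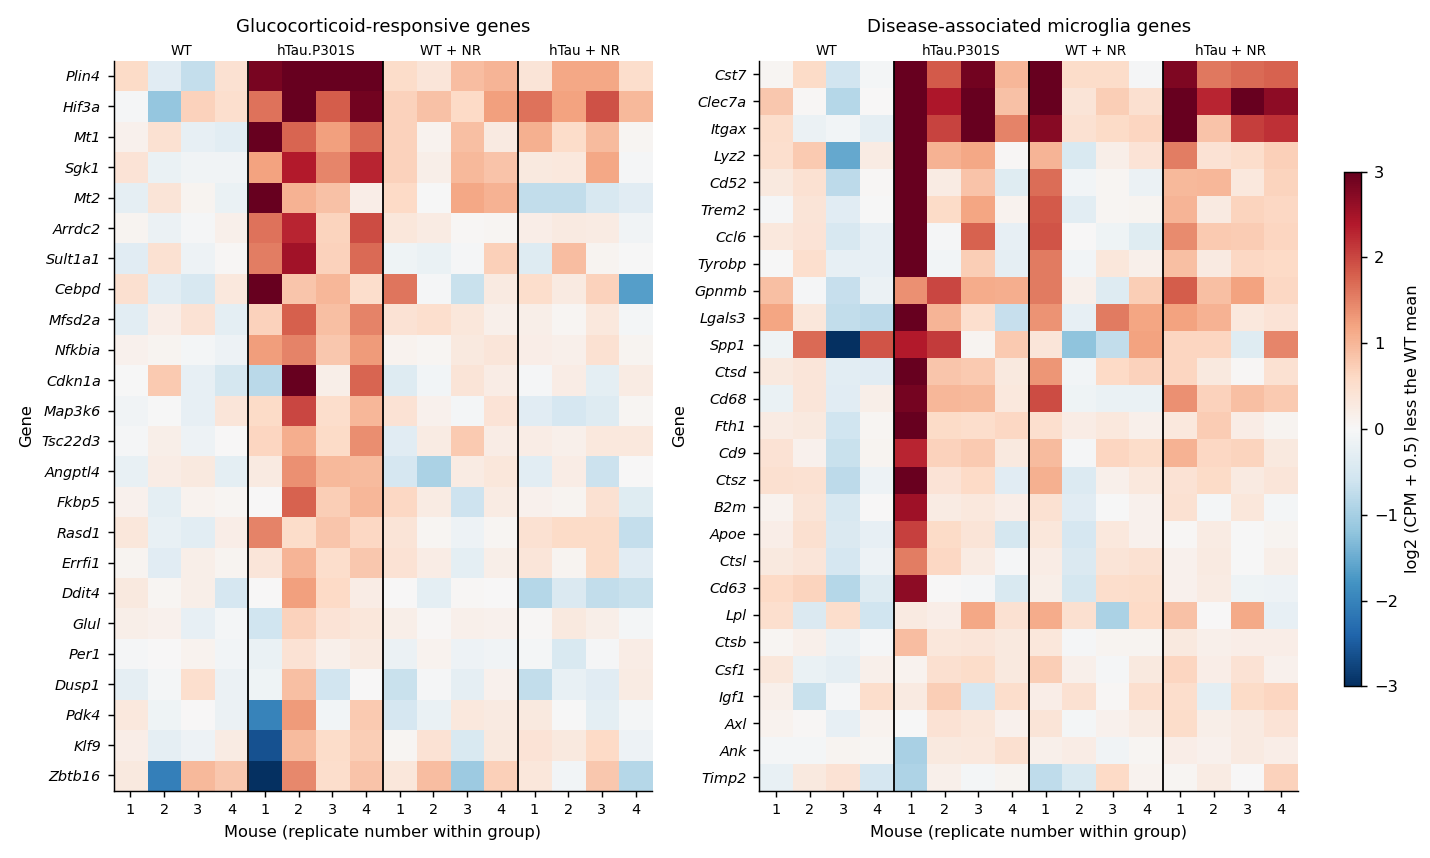
Level of each gene in each of the 16 mice as log2 (CPM + 0.5) less the mean of the 4 WT mice, with colors limited to 3 in either direction, for 24 glucocorticoid-responsive genes (left) and the 27 tested genes of disease-associated microglia (right). On the left the 4 hTau.P301S mice without NR are redder than the WT mice in most genes and the NR mice are pale in both genotypes, and on the right hTau.P301S replicate 1 is darkest.

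Genes of microglia, the resident immune cells of the brain, were mostly higher in hTau.P301S mice. Of 27 tested genes known to be induced in microglia near protein deposits, 26 had a log2FC above 0, 14 were higher and 0 lower at an unadjusted p under 0.05, and the median was 1.40. Without replicate 1 the counts were 12 and 0 and the median 0.35. Over all genes 3.41% were higher and 3.73% lower with 8 mice, and 5.16% and 6.63% without replicate 1. The summed level of the 28 genes listed was 32820, 8264, 7811 and 6489 CPM in hTau.P301S and 6493, 7458, 4487 and 5418 CPM in WT mice. Replicate 1 stood far above the others, which overlapped with the WT mice. Among 18 markers of homeostatic microglia, 3 were higher and 0 lower at an unadjusted p under 0.05, with a median of 0.52, and of 0.094 without replicate 1. No gene of either list was called.

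A gene of phagocytes was called without replicate 1. Itgad, an integrin subunit of phagocytes that belongs to neither list, was at 1.86, 2.95, 1.53 and 1.55 CPM in hTau.P301S and 0.0526, 0.219, 0.102 and 0.105 CPM in WT mice. No mouse overlapped, and Itgad rose by 4.0 on the log2 scale without replicate 1 (standard error 0.52, adjusted p = 0.0458). It was too low in the NR mice to be tested there, but all hTau.P301S + NR mice lay above all WT + NR mice in its level. Itgax, which encodes the integrin CD11c, was at 16.04, 4.18, 9.42 and 2.72 CPM and 1.16, 0.547, 0.611 and 0.472 CPM, a log2FC of 3.52 (unadjusted p = 0.000355, adjusted p = 0.323). Clec7a, a lectin that binds beta-glucans, was at 26.8, 5.14, 8.58 and 1.44 CPM and 1.37, 0.602, 0.102 and 0.577 CPM. Cst7, an inhibitor of cathepsins, was at 66.6, 2.09, 4.84 and 0.961 CPM and 0.263, 0.602, 0 and 0.210 CPM. In these 3 genes all hTau.P301S mice lay above all WT mice, replicate 1 highest and replicate 4 lowest, and the log2FCs without replicate 1 were 2.95, 2.92 and 3.27.

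Abundant microglial genes depended on replicate 1. Trem2, the lipid receptor needed for microglia to reach this state, was at 421, 24.9, 38.6 and 17.9 CPM in hTau.P301S and 16.1, 22.1, 13.1 and 16.8 CPM in WT mice, and Cst3, a secreted protease inhibitor, at 17560, 1108, 1650 and 1069 CPM and 1197, 1548, 974 and 1040 CPM. In both genes replicate 1 was more than 10 times the other hTau.P301S mice and those overlapped with WT. Neither passed the adjusted limit, and the log2FCs were 2.88 and 2.17 with 8 mice and 0.67 and 0.10 without replicate 1. The receptor Csf1r, on which microglia depend for survival, was at 175, 126, 132 and 105 CPM and 97.9, 98.3, 82.2 and 108 CPM, with log2FCs of 0.48 with 8 mice and 0.32 without replicate 1, and its groups overlapped in 1 pair of mice. Between the groups given NR the medians of both lists were 0.10 and 0.13. Markers of lymphocytes and granulocytes were mostly too low to test, with 4 tested and a median of 0.15.

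Genes of the complement system lay in both directions, and most of those of lysosomes lay higher. Among 21 complement and Fc receptor genes 9 were higher and 2 lower at an unadjusted p under 0.05, 13 of them had a log2FC above 0 and 8 under 0, the median was 0.78, and it was 0.10 without replicate 1. C4b, a complement component made by astrocytes and other glia, was at 547, 283, 220.0 and 138 CPM in hTau.P301S and 108, 66.3, 48.4 and 112 CPM in WT mice. C3ar1 and C5ar1, the receptors of the fragments C3a and C5a, had log2FCs of 2.11 and 1.53, from 4.11 to 19.6 CPM against 1.32 to 3.15 CPM and 1.58 to 2.34 CPM against 0.509 to 0.946 CPM. In all 3 the groups did not overlap, and the adjusted p was 0.598, 0.596 and 0.528. Of 45 genes of lysosomes and autophagy 40 had a log2FC above 0 and 10 were higher without overlap, with a median of 0.42, and 0.20 without replicate 1. Over all genes 3.49% were higher without overlap, and 3.41% were higher and 3.73% lower at an unadjusted p under 0.05. Ctss, a cathepsin of microglial lysosomes, was at 568, 127, 177 and 92.4 CPM and 72.3, 86.4, 64.3 and 63.9 CPM. Grn, which encodes progranulin, was at 111, 79.4, 80.04 and 70.3 CPM and 49.6, 56.2, 51.2 and 56.1 CPM, and Galns, a sulfatase, at 11.7, 12.2, 10.8 and 14.9 CPM and 6.52, 5.91, 9.07 and 7.66 CPM. None of the 3 overlapped between the groups. Their log2FCs without replicate 1 were 0.88, 0.52 and 0.79. With NR the median of the lysosomal list was -0.017.

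Reactive astrocyte genes and general astrocyte markers were listed apart. Of 23 reactive genes 6 were higher and 0 lower at an unadjusted p under 0.05, and the median was 0.49 (0.17 without replicate 1), whereas the 15 astrocyte markers had 0 and 0 and a median of 0.063. Without replicate 1 the reactive list had 6 higher and 1 lower and the astrocyte markers 2 and 0, with a median of 0.11. With NR the reactive list had 0 higher and 2 lower and a median of -0.069. The difference between both lists was not tested. Serpina3n, a secreted inhibitor of serine proteases, was at 159, 144, 122 and 74.7 CPM in hTau.P301S and 51.04, 32.2, 33.9 and 35.05 CPM in WT mice. The groups did not overlap, with a log2FC of 1.72 (standard error 0.28, adjusted p = 0.198) and of 1.58 without replicate 1 (adjusted p = 0.081). Gfap, the intermediate filament of astrocytes, was at 1235, 1313, 1300 and 641 CPM and 671, 415, 306 and 510.4 CPM. Replicate 4 of the hTau.P301S mice lay below WT replicate 1 and the other 3 lay above all WT mice, and the log2FC was 1.24 (adjusted p = 0.598). It was 0.38 in the NR mice.

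Most myelin genes had a log2FC above 0, and WT replicate 3 was the lowest mouse. The summed level of 21 oligodendrocyte genes was 13310, 10020, 10830 and 10500 CPM in hTau.P301S and 12260, 7518, 3359 and 7806 CPM in WT mice. The groups overlapped through WT replicate 1, the median log2FC was 0.65, and it was 0.29 without hTau.P301S replicate 1. Cldn11, the claudin that seals myelin, was at 330.4, 231, 237 and 230.4 CPM and 168, 134, 56.4 and 147 CPM and did not overlap (log2FC 1.02, adjusted p = 0.598). Mbp, myelin basic protein, was at 6415, 3760, 4910 and 4107 CPM and 3896, 3171, 1342 and 3241 CPM and overlapped. Of 13 genes of oligodendrocyte precursors 0 were higher and 1 lower at an unadjusted p under 0.05.

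Lists of hippocampal neuron markers had medians on both sides of 0, and few members were lower at an unadjusted p under 0.05. Of 10 markers of excitatory neurons 0 were lower at an unadjusted p under 0.05 and the median was 0.29 (0.44 without hTau.P301S replicate 1, 0.089 without WT replicate 2). Slc17a7, the vesicular glutamate transporter of excitatory neurons, was at 855, 1194, 1780 and 1399 CPM in hTau.P301S and 941, 246, 1477 and 1080 CPM in WT mice, where WT replicate 2 was lowest of all 8. Camk2a, the kinase of hippocampal synapses, was at 922, 3295, 3933 and 4229 CPM and 2928, 1563, 3244 and 3055 CPM, and hTau.P301S replicate 1 was lowest. The medians of CA1 pyramidal neurons, dentate granule cells and interneurons were -0.29, 0.0033 and -0.21, with 0, 0 and 1 genes lower at an unadjusted p under 0.05. Markers of CA2 and CA3 pyramidal neurons had a median of 0.49, with 5 of 15 higher and 0 lower, and 0.44 without replicate 1. Bok, a relative of the Bcl-2 proteins and a marker of CA3, was at 436, 97.04, 143 and 72.2 CPM and 79.5, 63.4, 41.1 and 27.4 CPM and overlapped. Its log2FC was 1.82, and 0.98 without replicate 1. Between the groups given NR the medians were -0.20 for excitatory neurons and -0.18 for CA2 and CA3 pyramidal neurons. They were 0.041 for CA1 pyramidal neurons, -0.18 for dentate granule cells and 0.31 for interneurons.

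Genes of synapses and channels lay in both directions. Of 44 genes of synaptic vesicle release 3 were higher and 3 lower at an unadjusted p under 0.05, of 24 glutamate receptors 0 and 1, and of 58 potassium channels 2 and 6. Over all genes 3.41% were higher and 3.73% lower. Without replicate 1 these lists had 5 and 2, 1 and 2, and 3 and 4, beside 5.16% and 6.63% of all genes. Their medians were -0.0071, -0.35 and -0.090 with 8 mice and 0.15, -0.16 and 0.013 without replicate 1. Of the glutamate receptors 20 had a log2FC under 0 with 8 mice, and 17 without replicate 1. Homer3, a scaffold of metabotropic glutamate receptors, was at 57.2, 43.04, 58.1 and 38.7 CPM in hTau.P301S and 25.7, 24.2, 31.8 and 16.8 CPM in WT mice, a log2FC of 1.0 without overlap. Kcng2, a modifier of voltage-gated potassium channels, was at 74.03, 47.4, 50.1 and 46.8 CPM and 27.1, 19.04, 36.5 and 24.7 CPM (1.02), also without overlap. Unc13c, a priming factor of synaptic vesicles, lay the other way, at 9.96, 13.3, 10.1 and 21.3 CPM and 24.6, 61.5, 32.6 and 22.6 CPM (-1.37). Cacna1g, a T-type calcium channel, was at 26.1, 35.8, 35.3 and 36.1 CPM and 50.6, 60.2, 95.1 and 98.95 CPM, and each hTau.P301S mouse was below each WT mouse (log2FC -1.19, unadjusted p = 0.00133, adjusted p = 0.504). With NR the 4 values were -0.65, -0.53, 0.51 and -0.019. Of 37 genes of tau, microtubule proteins and tubulins 0 were higher and 1 lower, and of 36 tau kinases and phosphatase subunits 1 and 0. Without replicate 1 these were 0 and 1, and 4 and 0. Tuba1c, not on the list with tubulins, was at 41.8, 35.5, 45.7 and 43.8 CPM and 16.1, 17.2, 10.3 and 10.1 CPM, with a log2FC of 1.64 (standard error 0.23, adjusted p = 0.189) and without overlap.

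Endothelial genes lay in both directions. Of 16 endothelial genes 2 were higher and 2 lower at an unadjusted p under 0.05, with a median of -0.33 (-0.35 without replicate 1). Kdr, the main receptor of VEGF, was at 2.28, 10.7, 7.63 and 5.23 CPM in hTau.P301S and 23.8, 10.2, 19.4 and 21.9 CPM in WT mice, and Flt1, another VEGF receptor, at 5.07, 48.4, 30.7 and 25.5 CPM and 72.9, 33.7, 63.8 and 108 CPM. Replicate 1 was the lowest mouse in both genes, and hTau.P301S replicate 2 overlapped with WT replicate 2. Tek, the angiopoietin receptor, had a log2FC of -1.23, and -0.90 without replicate 1. The higher endothelial genes were Mfsd2a and Ly6c1, a surface protein of endothelial cells, at 134, 29.8, 34.8 and 32.8 CPM and 26.3, 27.5, 22.1 and 27.96 CPM. Of 12 pericyte and mural genes 10 had a log2FC under 0 and the median was -0.40. Notch3, the Notch receptor of mural cells, was at 2.28, 15.1, 14.1 and 9.02 CPM and 19.6, 17.6, 18.1 and 31.1 CPM without overlap (adjusted p = 0.598). With NR, Kdr had a log2FC of -0.52, Flt1 of 0.00070 and Notch3 of -0.045.

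Transcripts of blood were lower in hTau.P301S replicates 2 to 4 and, in other animals, in the hTau.P301S mice given NR. Hbb-bs, a beta-globin, was at 13.3, 0.917, 3.42 and 1.49 CPM in hTau.P301S and 23.3, 7.55, 6.21 and 47.9 CPM in WT mice, and without replicate 1 the log2FC was -3.44 (unadjusted p = 0.00268, adjusted p = 0.269). The median over the 5 tested genes of blood was -2.17, and -2.94 over 7 genes without replicate 1. With NR, Hbb-bs had a log2FC of -2.58. How much blood was left in each sample was not measured.

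Markers of the striatum and the cerebellum differed between the groups mainly through WT replicate 2. The median log2FC of 15 striatal genes was -2.19, and -0.23 without WT replicate 2. The summed level of the 17 genes listed was 419.8, 383, 358 and 349 CPM in hTau.P301S and 422, 3213, 324 and 376 CPM in WT mice. Drd1, the D1 dopamine receptor, was at 3.80, 3.87, 3.47 and 5.34 CPM and 5.41, 87.9, 5.45 and 5.30 CPM. For 10 cerebellar genes the medians were -0.85 and -0.20, and Cbln3, a synaptic organizer of granule cells in the cerebellum, was at 0, 0.509, 0.105 and 0.587 CPM and 0.526, 52.9, 0.509 and 0.682 CPM. Markers of neocortical layers had a median of -0.41, with 1 higher and 4 lower of 18 at an unadjusted p under 0.05. Rorb, a nuclear receptor of cortical layer neurons, was at 7.93, 14.6, 9.05 and 12.2 CPM and 21.2, 14.9, 19.2 and 23.4 CPM without overlap, and WT replicate 2 was here the lowest WT mouse. Genes of choroid plexus and ependyma were lower in most members, 14 of 15 having a log2FC under 0 (median -1.09), and 17 of 17 without replicate 1 (median -0.73) and 17 of 17 with NR (median -1.90). At an unadjusted p under 0.05, 0 were lower with 8 mice and 0 without replicate 1, and 1 with NR. Their summed level varied from mouse to mouse in both groups, at 77.6, 4705, 79.6 and 60.3 CPM and 8000, 2541, 37.8 and 157 CPM. In the NR mice it was 169.5, 3730, 110.2 and 509.5 CPM in hTau.P301S + NR and 139.5, 93.33, 6332 and 10270 CPM in WT + NR mice. The groups overlapped there too, and WT + NR replicates 3 and 4 were highest.

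**Figure D4:**
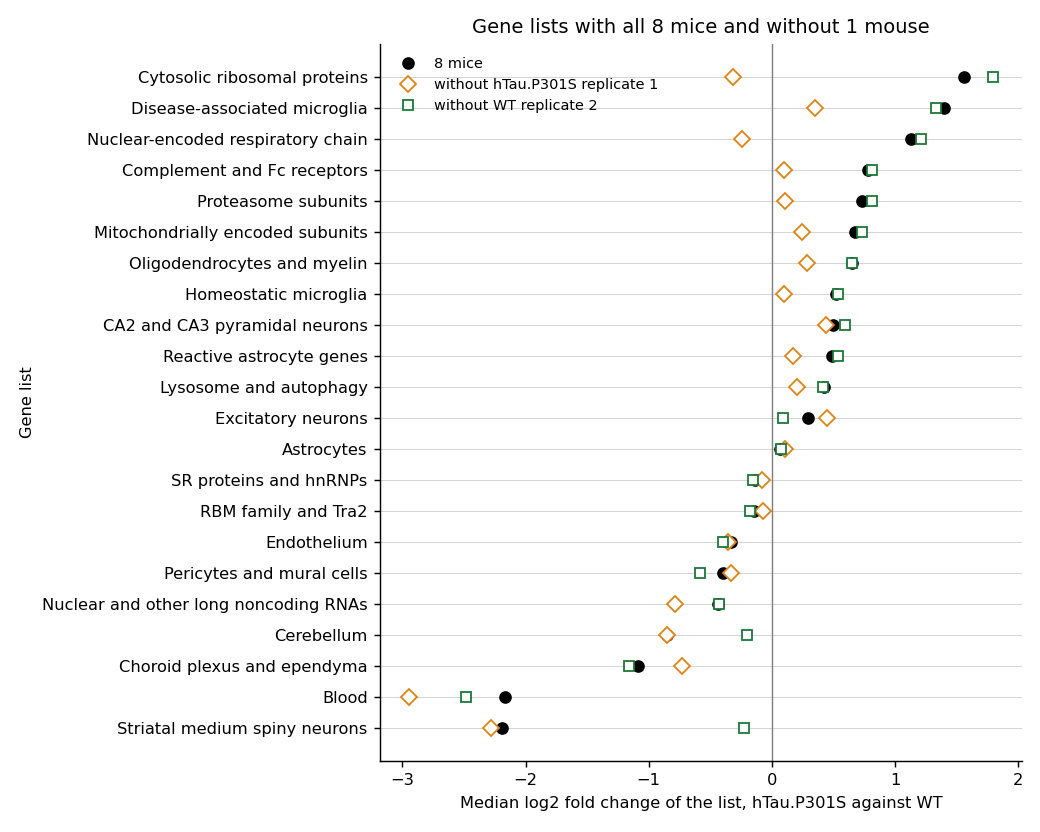
Median log2FC of hTau.P301S against WT over the tested genes of 22 lists, with all 8 mice (black points), without hTau.P301S replicate 1 (orange diamonds) and without WT replicate 2 (green squares). The ribosomal, respiratory chain and microglial medians move toward or past 0 without hTau.P301S replicate 1, and the striatal and cerebellar medians move toward 0 without WT replicate 2.

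Several genes were lower in each hTau.P301S mouse. Alpl, the alkaline phosphatase that acts on pyridoxal phosphate and pyrophosphate, was at 3.46, 3.97, 3.79 and 4.75 CPM in hTau.P301S and 17.6, 15.4, 9.37 and 14.5 CPM in WT mice, a log2FC of -1.83 (standard error 0.26, unadjusted p = 6.16e-05, adjusted p = 0.189) and of -1.76 without replicate 1. It had the smallest p of the genes chosen for lying below WT in every mouse, and with NR its log2FC was -0.29. H2-Q6, a class Ib MHC gene with close copies among its neighbours, was at 0.338, 0.357, 0.421 and 0.640 CPM and 2.996, 1.86, 2.44 and 4.51 CPM. Tmem181b-ps, a pseudogene that matches Tmem181a at 98.8% of the aligned bases, was at 7.43, 7.74, 9.16 and 11.9 CPM and 38.9, 27.1, 132 and 42.7 CPM. These last 2, both on chromosome 17, were also lower without overlap in the NR mice, with log2FCs of -2.05 and -2.46. Gbp4, a guanylate-binding protein induced by interferon, was at 0, 0.306, 0.210 and 0.107 CPM and 2.15, 0.766, 1.63 and 3.10 CPM, and its log2FC was -3.48 without and -0.64 with NR. The interferon-stimulated genes as a list had 0 higher and 0 lower at an unadjusted p under 0.05. The others of the 12 lower genes were Wdr78, Gm44846, Igsf9, Cacna1g, Agbl5, Crocc, Rtl1 and Fras1, with log2FCs from -4.35 (Gm44846) to -1.01 (Agbl5). The adjusted p of the 12 genes lay between 0.189 and 0.504.

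The single gene called as lower was Ccl27a, a chemokine whose gene has near-identical copies on chromosome 4. It was at 99.9, 11.97, 15 and 11.9 CPM in hTau.P301S and 30.8, 39.2, 35.9 and 37.5 CPM in WT mice. Replicates 2 to 4 lay below every WT mouse and replicate 1 lay above, so the log2FC was -0.051 with 8 mice, and without replicate 1 Ccl27a fell by a log2FC of -1.47 (standard error 0.15, adjusted p = 0.0143). In the NR mice it was -1.02, without overlap.

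Of the lower genes named, Wdr78, Crocc and Agbl5 belong to cilia and centrosomes, the microtubule structures that also line the ventricle on ependymal cells. Crocc, which encodes the rootlet protein rootletin, was at 17.8, 28.02, 35.8 and 26.04 CPM in hTau.P301S and 56.6, 44.2, 66.9 and 69.2 CPM in WT mice. Wdr78, a dynein subunit of motile cilia, was at 3.21, 5.71, 3.05 and 4.43 CPM and 15.5, 11.9, 9.52 and 9.34 CPM, and Agbl5, an enzyme that trims glutamates from tubulin, at 5.07, 7.23, 7.21 and 5.55 CPM and 10.8, 12.1, 13.6 and 14.2 CPM. All 3 were lower in every hTau.P301S mouse. A list of ciliary and basal body genes, made after these values had been seen, is given as a description. Of 23 tested genes 22 had a log2FC under 0, the median was -1.07, and 8 were lower without overlap, beside 2.74% of all genes. With NR the median was -0.36. The list of choroid plexus and ependyma genes had a median of -1.09, and its part in the ciliary values was not tested. Foxj1, the factor that turns on motile cilia, was at 8.95, 21.9, 13.9 and 6.67 CPM and 50.4, 32.3, 5.25 and 5.51 CPM and overlapped.

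Lists of RNA-binding proteins held genes in both directions. Of 31 SR proteins and hnRNPs, which bind pre-mRNA and guide splicing, 0 were higher and 3 lower at an unadjusted p under 0.05, with a median of -0.14 (-0.082 and 7 lower without replicate 1). Hnrnph1 was at 128, 133, 136 and 130.5 CPM in hTau.P301S and 189.7, 187, 196 and 226 CPM in WT mice, and Hnrnpm at 68.1, 78.8, 77.8 and 60.1 CPM and 132, 112, 93.3 and 114 CPM. In both the groups did not overlap, and the log2FCs were -0.60 and -0.66 (adjusted p = 0.598 for both). Hnrnph3 had -0.52 with 8 mice and -0.76 without replicate 1. Tardbp, which encodes TDP-43, was at 82.8, 104, 99.1 and 100.3 CPM and 131, 116, 151 and 156 CPM, a log2FC of -0.52 without overlap. Of 43 genes of the RBM family and Tra2 2 were higher and 6 lower. Rbm28, a nucleolar protein, was at 28.7, 21.5, 22.5 and 21.2 CPM and 40.1, 34.4, 39.7 and 41.9 CPM (-0.73, and -0.84 with an adjusted p of 0.0656 without replicate 1). Rbm4b, a splicing regulator, had -0.76. The core spliceosome had a median of 0.31 over 60 genes and of 0.0041 without replicate 1, so its size rested on that mouse. In the NR mice the log2FCs were -0.046 for Hnrnph1, -0.13 for Hnrnpm, -0.11 for Tardbp and 0.13 for Rbm28.

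Rbm3, the cold-inducible RNA-binding protein, lay the other way. It was at 249, 101, 115 and 114 CPM in hTau.P301S and 51.04, 60.6, 60.8 and 67 CPM in WT mice, where each hTau.P301S mouse was higher than each WT mouse. The log2FC was 1.27 (adjusted p = 0.561) and 0.88 without replicate 1 (adjusted p = 0.0664), and 0.046 with NR. Of 20 cold-inducible and hypoxia genes 7 were higher and 1 lower at an unadjusted p under 0.05, and the median was 0.25. The members of smallest p in this list were Sgk1, Hif3a and Tsc22d3. They were described above among the glucocorticoid-responsive genes, so the values of both lists are not separate. Immediate early genes, which respond to neuronal activity and to handling of the tissue, had a median of 0.053, with 1 of 26 higher and 0 lower. Fos was at 4.90, 8.91, 7.63 and 6.03 CPM and 10.6, 11.6, 15.7 and 5.82 CPM and overlapped. Among genes of the unfolded protein response and translation control 4 of 29 were higher and 0 lower. Sesn2, which restrains mTOR signalling under stress, was at 22.03, 33.7, 27.1 and 25.1 CPM and 14.7, 16.4, 19.5 and 15.4 CPM without overlap (0.71), and Atf3, a stress-induced transcription factor, at 8.02, 3.36, 2.31 and 0.854 CPM and 1.21, 1.42, 0.458 and 0.630 CPM with overlap (1.95).

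Malat1, Meg3 and Miat, long noncoding RNAs of the nucleus, were lower than in 3 of the 4 WT mice. Malat1, a component of nuclear speckles, was at 45.2, 105, 47.4 and 55.8 CPM in hTau.P301S and 292, 31.5, 543 and 639 CPM in WT mice, and Meg3, an imprinted neuronal transcript, at 433, 242, 178 and 221 CPM and 563, 252, 2345 and 2192 CPM. Miat was at 34.8, 53.6, 45.3 and 47.4 CPM and 118, 27.7, 300.0 and 362 CPM. In all 3 WT replicates 3 and 4 were highest and WT replicate 2 lay among or below the hTau.P301S mice. The log2FCs were -2.57, -2.32 and -2.16 (adjusted p = 0.598 for each), and -0.45, -0.20 and -0.77 with NR. Over the 20 genes of the list the median was -0.44, and -0.79 without replicate 1, where 0 were higher and 8 lower at an unadjusted p under 0.05. All lincRNAs tested without replicate 1 had a median of -0.31 over 511 genes, with 4 higher and 77 lower, and antisense genes -0.33 over 438, with 10 and 69, beside 5.16% and 6.63% of all genes. With all 8 mice these medians were -0.090 and -0.097.

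Transcripts of cytosolic ribosomal proteins were high in hTau.P301S replicate 1 alone. Summed over the 89 genes listed, their level was 137400, 11020, 13990 and 11140 CPM in hTau.P301S and 15490, 21970, 10420 and 11060 CPM in WT mice. Over the 84 tested genes the median log2FC was 1.56 with 8 mice and -0.32 without replicate 1, and of 96 nuclear-encoded genes of the respiratory chain 1.13 and -0.24. Both signs turned. Rps27a, a ribosomal protein made as a fusion with ubiquitin, was at 1928, 43.5, 92.1 and 39.01 CPM and 98.03, 93.1, 43.6 and 45.6 CPM. Proteasome subunits had 0.73 and 0.10, and the 13 protein-coding genes of the mitochondrial genome 0.67 and 0.24. The summed level of these 13 was 130000, 38220, 48320 and 63240 CPM in hTau.P301S and 38680, 49680, 40630 and 35510 CPM in WT mice, and hTau.P301S replicates 1 and 4 lay above every WT mouse. mt-Nd1, a subunit of complex I, was at 33620, 5379, 7201 and 8593 CPM and 5345, 6244, 4718 and 4174 CPM. Cox6a2, a subunit of cytochrome c oxidase, was at 45.4, 5.30, 5.10 and 6.08 CPM and 3.05, 2.90, 3.31 and 3.25 CPM, and did not overlap even without replicate 1 (0.81). The ribosomal median with NR was -0.33 and that of the respiratory chain -0.24.

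A relation with gene length went with this mouse. The tested genes were split into 5 groups of equal size by the length given in the deposited table. In the shortest group the median log2FC was 0.44 with 8 mice and in the longest -0.19, while without replicate 1 these were -0.13 and -0.031. In replicate 1 alone, the median of log2 (CPM + 1) less the mean of the WT mice ran from 1.06 in the shortest to -0.83 in the longest group. In the other 3 hTau.P301S mice it stayed between -0.11 and 0.072 across the 5 groups, and in WT replicate 2 it ran from 0.21 to -0.25. What part length, RNA quality or cell makeup had in the values of replicate 1 was not tested.

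**Figure D5:**
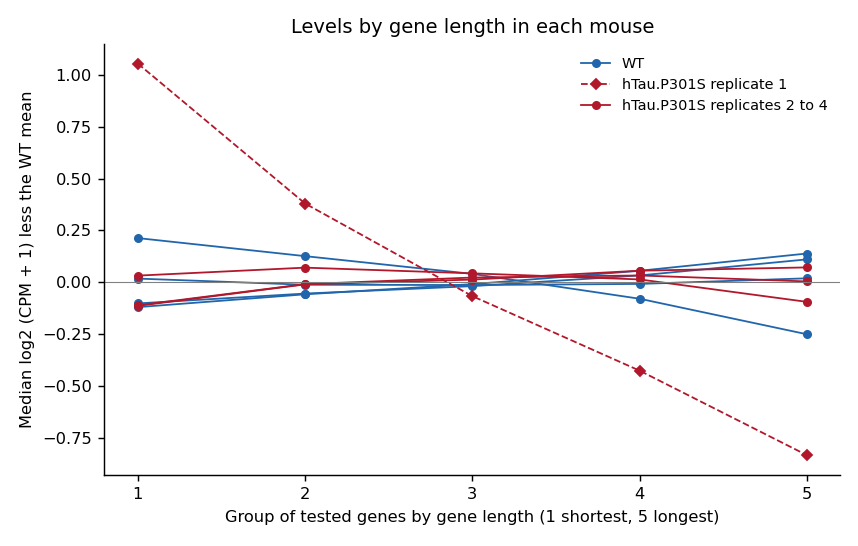
Median over genes of log2 (CPM + 1) less the mean of the 4 WT mice, by group of gene length from shortest to longest, with 1 line for each of the 8 mice. The dashed line of hTau.P301S replicate 1 falls from 1.06 to -0.83, and the other 7 lines stay between -0.25 and 0.21.

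Genes of NAD synthesis and consumption, the pathway that NR feeds, were counted with and without replicate 1. Of 25 tested genes 1 was higher and 1 lower at an unadjusted p under 0.05, and the median was 0.070. Without replicate 1 these were 6 higher and 1 lower of 25, beside 5.16% and 6.63% over all genes, and the median was 0.030. Summed over the 31 genes listed, the level was 1048, 969, 1011 and 939 CPM in hTau.P301S and 868, 831, 866 and 873 CPM in WT mice, and each hTau.P301S mouse lay above each WT mouse. With NR the sums were 891, 862, 902 and 859.5 CPM and 986, 928, 884 and 915 CPM and overlapped, and 0 genes were higher and 4 lower of 24, with a median of -0.14. The members of smallest p with 8 mice lay in both directions. Tdo2 and Cd38 had log2FCs of 0.64 and 0.53, and of 0.66 and 0.64 without replicate 1. Sirt4, a mitochondrial sirtuin that uses NAD+, was at 7.77, 6.32, 6.21 and 7.52 CPM in hTau.P301S and 8.73, 10.1, 12.6 and 14.7 CPM in WT mice, a log2FC of -0.73 without overlap (adjusted p = 0.598). Eva1c, a cell-surface receptor of axon guidance on which the study centred, was at 6.08, 3.82, 3.16 and 4.38 CPM and 2.47, 2.63, 2.55 and 2.41 CPM. Each hTau.P301S mouse lay above each WT mouse, with a log2FC of 0.79 (standard error 0.29, adjusted p = 0.598), and with NR it was -0.47. The interaction of genotype and NR had an adjusted p of 0.558 in edgeR. Its relative Eva1a, a regulator of autophagy, was at 23.6, 18.2, 20.1 and 16.9 CPM and 12.1, 12.3, 9.12 and 11.8 CPM, also without overlap (0.80). Of 40 genes of the amyloid precursor pathway and of dementia risk 5 were higher and 1 lower at an unadjusted p under 0.05, and the median was 0.073.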

How the data were processed

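Hippocampal RNA-seq of 16 mice was deposited, and 8 mice without NR were analysed here. The authors trimmed reads with Trim Galore and checked them with FastQC, aligned them to mm10 with STAR, and deposited raw counts per gene from RSEM, which are whole numbers without normalization, together with a gene length. The kit and counting are not stated to use strand.

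Counts were fitted with edgeR 4.0.16 in R 4.3.3 (filterByExpr, TMM, quasi-likelihood test, Benjamini-Hochberg adjustment), with and without hTau.P301S replicate 1. Lists are given by counts and medians, without a set test. Alternatives used DESeq2 1.42.0 (the study's tool), limma 3.58.1, other filters, all 16 mice, a replicate block and each mouse left out. Positions come from GENCODE M21 (GRCm38), which matched 16360 of the tested genes, pseudogene parents from blastn 2.17.0, and promoters from RefSeq. Some gene symbols, 27 in all, are 5-digit numbers in the deposited table and were left as they stand.

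Named genes were all genes called in either fit, the 12 higher and 12 lower of smallest p among genes without overlap, a mean CPM of at least 1 and an unadjusted p under 0.05 in both fits, Mapt and Thy1, and the members of smallest p or highest level in each of 60 lists, from which the text names a selection. Cd48, Folh1, Foxj1, Ly6c1, the parents of pseudogenes and Arrdc2, Dusp1, Errfi1, Fkbp5, Mt1 and Zbtb16 lie outside this rule and were chosen after their values were seen. Members and lists were chosen with earlier results of these data known, and 2 further lists were made after seeing values. P-values measure the spread between 4 mice a group.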

Additional observations from a re-analysis of the deposited data

Results flagged for a closer look

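Levels of the named genes, summed levels of the lists and library measures were examined within each group of 4 mice for a mouse far from the others. The library measures were the mitochondrial share, the number of genes with a count and the TMM factor. A mouse stood apart when its gap to the nearest mouse, divided by the range of the group, was above Dixon's critical value for 4 samples. This held in 43 of 246 groups, where chance gives about 1 in 20 for normally distributed values. None of the 43 was a library measure. Many of the 246 values share genes or mice, so they are not independent. Some genes were also chosen for their values, so 1 in 20 is only a rough guide. No cause was tested.

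Replicate 1 of the hTau.P301S mice was the highest of its group in 28 cases. Among lists the ratio was 0.933 for disease-associated microglia, 0.958 for homeostatic microglia, 0.888 for complement and Fc receptors, 0.976 for cytosolic ribosomal proteins, 0.952 for the nuclear-encoded respiratory chain, 0.928 for proteasome subunits and 0.842 for the RBM family and Tra2. Among the pseudogenes it was 0.973 for Gm10020, 0.942 for Rps26-ps1, 0.899 for Gm6969, 0.923 for Gm3375, 0.949 for Rpl15-ps2 and 0.972 for Rpsa-ps10, and for the parent gene Rpl15 it was 0.935. Among genes of immune and glial cells it was 0.941 for Cst7, 0.949 for Trem2, 0.965 for Cst3, 0.858 for Cd48 and 0.935 for Cldn11. Other genes with this mouse highest were Ccl27a (0.965), Mt1 (0.905), Kcng2 (0.877), Rbm28 (0.835), Rbm3 (0.905), Rps27a (0.972), Cox6a2 (0.976), mt-Nd1 (0.886) and Ly6c1 (0.952). The same mouse was the lowest in Gm7292 (0.856) and Cacna1g (0.913).

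In the other hTau.P301S mice, replicate 2 was highest in the summed choroid plexus and ependyma genes (0.996) and replicate 4 lowest in Gfap (0.883). WT replicate 2 was highest in the striatal list (0.966), Adora2a (0.999), Drd1 (0.998), Avp (0.999) and Cbln3 (0.997). WT replicate 1 was highest in Sgk1 (0.901), Serpina3n (0.848) and Gapdh (0.952). WT replicate 3 was highest in Tmem181b-ps (0.851), and WT replicate 4 in the pericyte and mural list (0.835) and Notch3 (0.856).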

How the results depend on the processing

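The number of called genes differed between tools, filters and sets of mice. With 8 mice edgeR called 1 gene, against 115 with DESeq2, 494 with DESeq2 over 16 mice, 36 with edgeR over 16 mice, 5 without a filter and 188 with limma's sample weights, and Gm13394 was among the calls each time. Leaving out 1 mouse gave 1 to 14. The 1169 genes at an unadjusted p under 0.05 became 3329 and 3177 in the fits of DESeq2 and edgeR over 16 mice, 2311 without a filter, 3538 with sample weights and 712 to 1985 with 1 mouse left out (712 without WT replicate 4, 1985 without hTau.P301S replicate 1). The 14 calls without hTau.P301S replicate 1 became 290 with DESeq2, 51 with sample weights and 9 with at least 10 counts in every mouse, and, in fits chosen after seeing the data, 474 with DESeq2 and 53 with edgeR over 15 mice. The interaction gave 0 genes with edgeR, also without hTau.P301S replicate 1, and 18 with DESeq2. The 1020 genes without overlap became 1293 to 2365 with 1 mouse left out, fewer mice being easier to separate. The cause of the other differences was not tested.

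Replicate numbers name different animals. Deviations of same-numbered mice from their group means correlated at -0.018, -0.19, 0.26 and 0.30 for replicates 1 to 4. The highest correlation of each WT mouse with an hTau.P301S mouse of another number was 0.21, 0.31, 0.32 and 0.15. Whether same-numbered mice shared a batch was not tested, and the labels name no batch. With the replicate number as a block, 3 genes were called with 8 mice, 7 without hTau.P301S replicate 1 (6 of them among the 14) and 0 for the interaction, and 771 had an unadjusted p under 0.05.

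Of 97 genes examined, 90 kept their sign in all alternatives. The log2 fold change turned when a mouse was left out, with the lowest value first, in Ccl27a (-1.47 to 0.20, above 0 without hTau.P301S replicate 2, 3 or 4), Zbtb16 (-0.26 to 0.62, below 0 without hTau.P301S replicate 2 or WT replicate 2), Dusp1 (-0.27 to 0.32, below 0 without hTau.P301S replicate 2), Camk2a (-0.0089 to 0.50, below 0 without hTau.P301S replicate 4 or WT replicate 2), Avp (-8.45 to 0.99, above 0 without WT replicate 2), Rps27a (-0.27 to 3.25) and Rpl15 (-0.16 to 1.33), both below 0 without hTau.P301S replicate 1. Zbtb16 was at -0.26 with the block, and Rps27a and Rpl15 were at -0.13 and -0.023 with sample weights.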

Other observations

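Further gene groups lay lower in hTau.P301S mice or stayed near the level of WT mice. All 14 tested genes of fibroblasts and meninges had a log2 fold change under 0, with a median of -0.79, and 0 were lower at an unadjusted p under 0.05. Without hTau.P301S replicate 1 their median was -0.43, with 3 above 0 and 11 under 0, and in the NR mice it was -0.62, with 14 under 0. Their summed level was 1114, 3144, 453.9 and 1375 CPM in hTau.P301S and 677.3, 3208, 588.1 and 2238 CPM in WT mice. These sums varied from mouse to mouse and overlapped between the groups. Col1a1, which encodes a chain of collagen I, was at 0.338, 10.4, 1.37 and 3.10 CPM in hTau.P301S and 11.5, 7.99, 6.83 and 18.6 CPM in WT mice, and the groups overlapped. The MHC genes, which present antigens, had 1 lower and 0 higher of 19 at an unadjusted p under 0.05, and without replicate 1 5 lower and 0 higher of 20, with medians of -0.020 and -0.49. Their median with NR was -0.59. Neuropeptides and their receptors had 5 lower and 0 higher of 35, and their median of -0.37 was 0.048 without WT replicate 2. Avp, which encodes the hormone vasopressin, was at 2.28, 1.32, 0.263 and 0.214 CPM in hTau.P301S and 0.421, 856, 0.153 and 0.892 CPM in WT mice. Genes of cholesterol synthesis had 0 higher and 0 lower of 23, with a median of -0.12, and heat shock proteins and co-chaperones 1 and 1 of 40, with a median of 0.14. These medians lie beside 0.023 over all genes tested with 8 mice, -0.028 without replicate 1 and -0.016 in the NR mice.

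Scnn1a, a subunit of the epithelial sodium channel that marks a layer of the cortex, was at 0.591, 3.16, 4.37 and 4.86 CPM in hTau.P301S and 8.83, 8.87, 6.77 and 10.2 CPM in WT mice. Each hTau.P301S mouse lay below each WT mouse, and the same held between the groups given NR, with log2 fold changes of -1.41 without and -1.19 with NR. Of the 18 neocortical markers, which Scnn1a belongs to, 3 were lower without overlap in the mice without NR, beside 2.74% of all genes.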
